A study of Mus musculus with 24 samples.

Results

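Mouse whisker follicles were cultured with pyridoxine hydrochloride (PH) together with tocopherol acetate (TA). Their transcripts were compared with those of follicles cultured with TA alone. The members are the 3 arrays labelled PH-TA and the 3 labelled TA, 6 of the 24 arrays of the series, chosen by their titles. The series cultured vibrissa follicles of B6C3F1 mice, taken on postnatal day 9, for 24 h in RPMI medium with fetal bovine serum and with every combination of PH, TA and panthenyl ethyl ether (PEE). The TA group received 0.024% TA. The PH-TA group received the same TA and 0.015% PH. Beside them stand the control group with no added compound, the PH group with 0.015% PH, the PEE-TA group with TA as above plus PEE at 0.3%, and the PEE-PH-TA group with all 3 compounds at these doses. Each sample was RNA of 10 pooled follicles, and the labels speak of 3 independent experiments. No group was given another dose or time, so the comparison answers what PH does to transcripts at this dose and time on a background of TA.

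Pyridoxine is a form of vitamin B6. Cells take it up, phosphorylate it with pyridoxal kinase and convert it to pyridoxal phosphate, the cofactor of aminotransferases, decarboxylases and other enzymes of amino acid metabolism. Tocopherol acetate is an ester of vitamin E, a lipid-soluble antioxidant that is released from the ester by esterases. In a growing follicle the matrix cells around the dermal papilla divide and their daughters form the hair shaft and the inner root sheath, so cell division genes, keratins and papilla factors are the usual readouts of this organ.

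RNA was hybridised to one-colour Agilent arrays, on which each value is the brightness of a probe. A value below is log2 of the processed signal relative to the 75th percentile of the same array, and a difference is PH-TA minus TA on that scale. The ± after a difference is the standard error from limma for 3 arrays per group, with the spread estimated over all 24 arrays. A gene rose or fell if limma, fitted over all 24 arrays, gave an adjusted p under 0.05 (Benjamini-Hochberg over 22065 genes or transcripts). The number of arrays limits the precision. Hair shaft (8 of 8), inner root sheath (7 of 7) and outer root sheath (5 of 5) markers were well above background on all 6 arrays, and so were 5 of 5 macrophage, 5 of 5 melanocyte, 6 of 6 skeletal muscle, 4 of 4 endothelial and 3 of 3 erythroid markers. In none of the 11 marker lists did a member rise or fall. The mean log2 level of the 5 macrophage markers was 1.52 to 1.68 with TA and 1.29 to 1.52 with PH-TA, and their part in the results was not tested. In bulk follicles, fewer cells of a type and less RNA per cell cannot be told apart.

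With PH added to TA, 524 genes rose and 393 fell, which is 4.16% of the genes tested (2.37% up and 1.78% down). Changes were small: the median size among the 917 was 0.41 on the log2 scale, and 23 rose and 16 fell at least 2-fold. In 911 of the 917 the 3 PH-TA arrays did not overlap the 3 TA arrays, against 25.2% of all genes. The median difference of all genes was -0.040, and 4970 genes had an unadjusted p under 0.05.

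The signal of the arrays differed between the groups before scaling. The 75th percentile of processed signal was 175, 200 and 178 on the TA arrays and 248, 229 and 203 on the PH-TA arrays, so each PH-TA array was brighter than each TA array. With the log2 of this signal as a covariate in limma, 0 genes passed (1941 had an unadjusted p under 0.05), while 917 of 917 kept their sign. The part of array signal in the result cannot be told apart from that of PH. Single arrays mattered as well. The count was 193 without TA replicate 1, 186 without TA replicate 3, 71 without PH-TA replicate 1, 399 without PH-TA replicate 2 and 1565 without PH-TA replicate 3. In all 6 such fits 61 of the 917 passed, 35 up and 26 down. Fitted on the 6 arrays alone, limma passed 3 genes. With quantile normalization 566 rose and 258 fell, and in the values deposited by the authors 428 rose and 200 fell, so the split between higher and lower genes moved with the scaling. With normexp background it turned to 1438 up and 5244 down, and without the filter on dim probes to 1005 up and 5127 down.

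**Figure D1:**
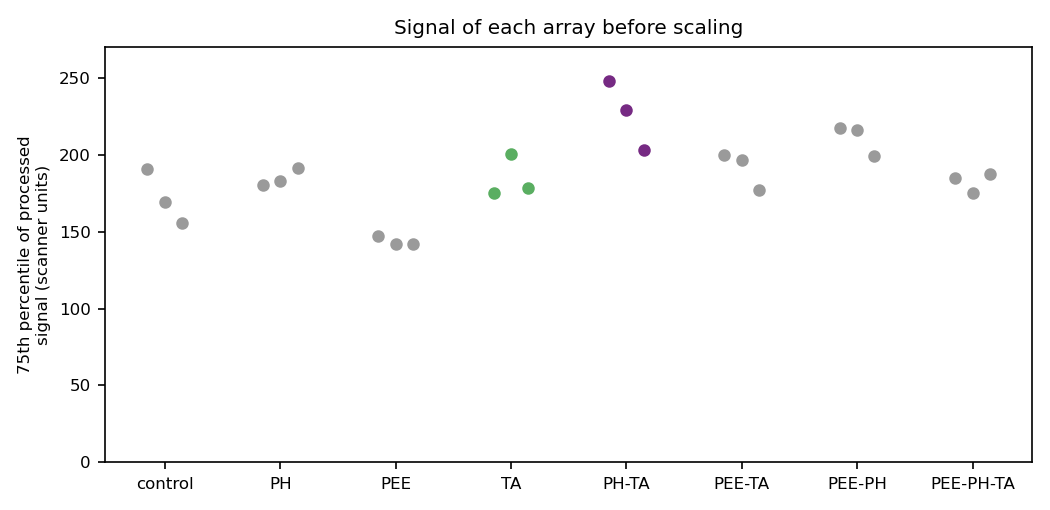
The 75th percentile of processed signal of each of the 24 arrays before scaling, in scanner units, by group; each point is 1 array. The 3 PH-TA arrays (203 to 248, purple) lie above the 3 TA arrays (175 to 200, green).

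Genes with the largest changes are named here only where the PH-TA and TA arrays did not overlap, so that separation was fixed by the choice. The largest fall among these was that of Rbp7, a cellular retinol-binding protein. Its level was 0.63, 0.78 and 1.31 on the TA arrays and -1.42, -0.66 and -1.05 on the PH-TA arrays. All PH-TA arrays lay below all TA arrays, and the difference was -1.95 ± 0.23, 3.86-fold lower (limma, adjusted p = 0.000808). The Rbp7 probe lies at chr4:148823870-148823929 in mm9. Mmp9, a gelatinase that cuts collagen and other matrix proteins, was at 0.12, -0.27 and 0.31 with TA and at -1.44, -1.33 and -1.05 with PH-TA (probe on chromosome 2, 164779091 to 164780300). Again the groups did not overlap, and Mmp9 fell by 1.33 ± 0.16 (adjusted p = 0.000838), with -1.26 on its other probe. Alox12e, an epidermal lipoxygenase, was at 0.75, 0.89 and 0.91 with TA and at -0.32, 0.04 and -0.19 with PH-TA. Its difference was -1.01 ± 0.15 (0.00316). Rbp7, Mmp9 and Alox12e passed without any one of the 6 arrays, with highest adjusted p-values of 0.00856, 0.0109 and 0.0292.

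Serpina3f, a member of a cluster of close serine protease inhibitor genes, fell by 0.93 ± 0.13 (limma, adjusted p = 0.00282), with -1.03 on a further probe; its close relatives could share signal with it. P2rx2, an ATP-gated ion channel, fell by 0.99 ± 0.15 (0.00337) on one probe, while its other probe gave -0.031. Both held with each array left out. Tnf, the inflammatory cytokine, was at -0.48, -1.25 and -1.02 with TA and at -2.23, -1.94 and -1.66 with PH-TA. The groups did not overlap, and the difference was -1.03 ± 0.23 (0.0233), with -0.55 on another probe, but 4 of the 6 arrays ended this call, namely TA replicates 1 and 3 and PH-TA replicates 1 and 2 (highest adjusted p 0.159). Orm2, an acute-phase protein, fell by 0.89 ± 0.17 (0.0101) and Prap1 by 0.96 ± 0.18 (0.00974). Orm2 lost its call without PH-TA replicate 1 (0.0882) and Prap1 without TA replicate 1 (0.051). The interleukin receptor Il18r1 (-0.89, 0.0262), the homeobox gene Dbx2 (-0.96, 0.0484) and the interferon-induced Ifi27l2a (-0.90, 0.049) lost theirs without at least 4 of the 6 arrays, TA replicate 1 and PH-TA replicate 1 among them. The receptor gene Gpr20 was well above background on 2 of 3 TA arrays and on 0 of 3 PH-TA arrays. Taking the lowest signal of probes well above background as its floor, or its own signal where that was higher, Gpr20 was at least 1.63-fold lower (0.0102), but not without TA replicate 1 or PH-TA replicate 1 (highest adjusted p 0.0836).

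Among the genes that rose, Ces1a, a carboxylesterase, enzymes that split ester bonds, stood at -4.81, -4.40 and -4.97 with TA and at -2.67, -3.14 and -3.33 with PH-TA. Every PH-TA array was above every TA array, and Ces1a rose by 1.68 ± 0.20, 3.21-fold (limma, adjusted p = 0.000808; probe at chr8:95544137-95544196 in mm9). With normexp background the rise was 0.20, and other genes of its family could share signal with it. Serpini1, the serine protease inhibitor neuroserpin, was at -5.20, -5.01 and -6.01 with TA, where 1 of 3 arrays was well above background, and at -3.54, -3.87 and -3.72 with PH-TA. The groups did not overlap, with a difference of 1.70 ± 0.27 (0.00359) that rests on TA values mostly near background. With normexp background Serpini1 had 0.037 (0.655). With the background as deposited, Ces1a and Serpini1 held with each array left out (highest adjusted p 0.00856 and 0.0304).

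Fibin, named for fin bud initiation in fish, was at 2.49, 2.30 and 2.17 with TA and at 4.20, 3.56 and 3.25 with PH-TA. It rose by 1.34 ± 0.24 (limma, adjusted p = 0.00826), and PH-TA replicate 1 was the highest array. Without PH-TA replicate 1 the adjusted p was 0.069. Kera, the corneal proteoglycan keratocan, rose by 1.14 ± 0.25 (0.02), from 0.91 ± 0.31 (SD, n = 3) to 2.05 ± 0.41. It lost its call without TA replicate 3 or PH-TA replicate 1 (highest adjusted p 0.15).

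The other genes with the largest rise were dim. Probes were kept if well above background on all 3 arrays of any group, so some of these genes could have entered through PH-TA. The bounds given here hold only for the background as deposited. By the bound described for Gpr20, Grifin, a galectin-related gene, was at least 2.03-fold higher (limma, adjusted p = 0.0411), Adam22, a cell adhesion gene of the ADAM family, at least 2.00-fold (0.0309) and Morn5 at least 1.98-fold (0.0227). Scgb3a1, a secretoglobin, was at least 1.67-fold higher (0.0322), the protocadherin Pcdhb13 at least 1.37-fold (0.0445), Dipk1c at least 1.28-fold (0.0219) and the homeobox gene Hoxc6 at least 1.18-fold (0.0498), the last with 1 of 3 PH-TA arrays well above background. The ubiquitin ligase gene Trim31, with 1 of 3 TA arrays well above background, had 1.43 ± 0.37 (0.039). Each of these 8 lost its call without at least 3 of the 6 arrays, TA replicates 1 and 3 and PH-TA replicate 1 among them, and each had a difference below 0 with normexp background.

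**Figure D2:**
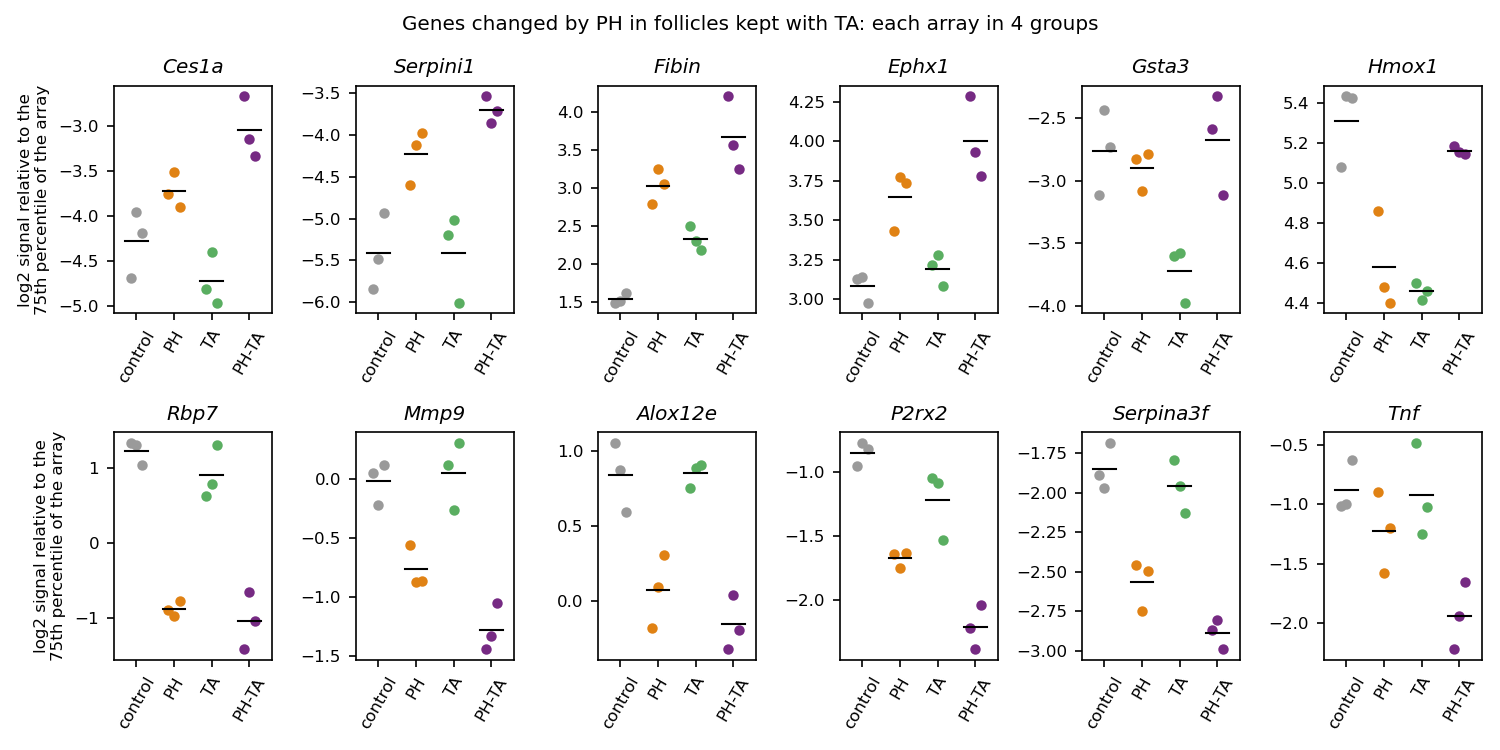
Log2 signal relative to the 75th percentile of the array for 12 genes that rose (first 6 panels) or fell (last 6) with PH-TA against TA, in control, PH, TA and PH-TA; points are arrays in replicate order, bars the mean of 3. In each panel the PH-TA and TA arrays do not overlap, and Hmox1 is lower with PH than in control but higher with PH-TA (5.14 to 5.18) than with TA (4.41 to 4.50).

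Hmox1, the haem oxygenase that breaks down haem and a well-known target of the oxidative stress factor NRF2, showed the largest difference between the effects of PH with and without TA among genes past the threshold. It was at 5.08, 5.43 and 5.42 in control, at 4.86, 4.48 and 4.40 with PH, at 4.50, 4.41 and 4.46 with TA, and at 5.18, 5.16 and 5.14 with PH-TA. Thus the PH arrays lay below the control arrays, while the PH-TA arrays lay above the TA arrays. Hmox1 fell by 0.73 ± 0.11 with PH against control (limma, adjusted p = 0.00217) and rose by 0.70 ± 0.11 with PH-TA against TA (0.00351). The test of the difference between both effects gave 1.43 (0.000583), with adjusted p-values from 1.58e-05 to 0.0536 over the alternative settings. The 3 slides, each of which carried 1 array of every group, gave PH-TA minus TA differences of 0.68, 0.74 and 0.68. With array signal as a covariate the rise with TA was 0.91 (0.052) and the difference between both effects 1.56 (0.000239). A single tested probe measured Hmox1, on chromosome 8 from 77624406 to 77624466 in mm9.

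That difference test passed 3 of 22065 genes, 0.0136%, the other two being Gfod1 and Lime1. Gfod1, of a family of oxidoreductase-like proteins, fell by 0.86 with PH against control (limma, adjusted p = 0.000863) and had 0.31 with PH-TA against TA (0.104), a difference of 1.16 (0.00462). Its second probe gave -0.11 in place of 0.31, and the difference did not pass with the mean of the probes (0.68, 0.343) or with normexp background (0.40, 0.129). The lymphocyte adaptor Lime1 rose by 0.47 ± 0.07 with PH-TA against TA (0.00282) and had -0.20 with PH against control (0.0967), a difference of 0.68 (0.0152). Lime1 lost this call without any one of 7 of the 12 arrays, control replicate 2 among them (0.0618), and with array signal as a covariate (0.0866).

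Of 31 NRF2 targets tested, 6 rose and 0 fell with PH-TA against TA, with a list median of 0.13, against a median of -0.040 and 2.37% risen over all genes. Next to Hmox1 these were glutathione transferases, which couple glutathione to reactive compounds, the epoxide hydrolase Ephx1 and the haem transporter Slc48a1. Gstm1 was at 1.73, 1.68 and 1.62 with TA and at 2.50, 2.50 and 2.13 with PH-TA. The groups did not overlap and Gstm1 rose by 0.70 ± 0.09 (limma, adjusted p = 0.00115). Gstm3, a close relative that could share signal with it, rose by 0.69 ± 0.11 (0.00546). Ephx1 was at 3.21, 3.28 and 3.08 with TA and at 4.29, 3.93 and 3.78 with PH-TA, and rose by 0.81 ± 0.12 (0.00282). Ephx1, Gstm1, Gstm3 and Hmox1 held with each array left out. Gsta3 was at -3.61, -3.58 and -3.98 with TA and at -2.59, -2.33 and -3.11 with PH-TA, and rose by 1.05 ± 0.22 (0.0186). It lost its call without TA replicate 3 or PH-TA replicate 1 or 2 (highest adjusted p 0.121), and with normexp background it had 0.17 (0.348).

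Other members of that list, picked here after their values were seen because they are widely measured, did not pass. The cystine transporter Slc7a11 had 0.54 (limma, adjusted p = 0.0817), the glutathione synthesis subunit Gclc 0.38 (0.0748), the quinone reductase Nqo1 0.34 (0.131), the thioredoxin reductase Txnrd1 0.23 (0.109) and the sulfiredoxin Srxn1 0.17 (0.278). The lowest member was Gsta4 at -0.21 (0.4). With PH against control, 1 of the 31 rose and 2 fell, with a median of -0.09, where 1.6% of all genes rose and 3.65% fell. Of 25 antioxidant enzymes 1 rose (4%) and 1 fell (4%) with PH-TA against TA, near the 2.37% and 1.78% of all genes. Txnrd2 of mitochondria rose by 0.31 (limma, adjusted p = 0.00913). It lost its call without PH-TA replicate 1 (0.0599) and with the mean of its tested probes (0.16, 0.189). The methionine sulfoxide reductase Msra fell by 0.32 (0.0154). Msra lost its call without TA replicate 3 or PH-TA replicate 1 (highest adjusted p 0.123).

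The antioxidant response element that NRF2 binds has the core TGACNNNGC. On either strand, from 250 bases before to 50 after a RefSeq start site (GRCm38.p6), these letters were found in 15.9% of 13606 tested genes with a window, in 9 of 25 list members with one, and in 1 of the 4 risen members with one. That member is Gsta3, whose 150 bases before the start, chr1:21240435-21240584 on the plus strand, are shown with the core in capitals because it begins 121 bases before the start.
Gsta3: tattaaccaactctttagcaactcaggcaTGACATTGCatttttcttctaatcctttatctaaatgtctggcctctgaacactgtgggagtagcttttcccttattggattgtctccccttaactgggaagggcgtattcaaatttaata
A match is a description of the letters and no evidence of binding in these follicles.

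Genes of cell division were lower with PH-TA than with TA. Of 42 cell cycle and mitosis genes tested, 19 fell and 0 rose, against 1.78% fallen over all genes. All 42 differences were below 0, while 43.1% of all genes had a difference above 0, and the list median was -0.35. The 3 slides gave medians of -0.52, -0.18 and -0.35, and 37 of 42 genes were lower on each slide. In 35 of 42 the PH-TA arrays lay entirely below the TA arrays, where 25.2% of all genes did not overlap in either direction. The calls were fragile: 1 gene passed without TA replicate 1, 0 without TA replicate 3, 0 without PH-TA replicate 1 and 0 with array signal as a covariate, while the list median ran from -0.42 to -0.27 with an array left out and was -0.35 with the covariate.

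Most of the genes that fell are known for roles in mitosis; cyclin D1 acts earlier in the cycle and cyclin A2 from DNA replication on. Kif23, a kinesin of the dividing cell's midzone, was at -0.89, -0.91 and -0.65 with TA and at -1.55, -1.21 and -1.26 with PH-TA. The groups did not overlap, and Kif23 fell by 0.53 ± 0.11 (limma, adjusted p = 0.021), with -0.42 and -0.38 on its other probes. Aurka, the kinase of spindle poles, was at 2.44, 2.42 and 2.62 with TA and at 1.86, 2.06 and 2.11 with PH-TA, a difference of -0.49 ± 0.11 (0.0228). Hmmr, a spindle-associated receptor of hyaluronan, fell by 0.50 ± 0.14 (0.048). Kif23, Aurka and Hmmr lost their calls without TA replicate 1, TA replicate 3 or PH-TA replicate 1, and Hmmr also without TA replicate 2 or PH-TA replicate 3 (highest adjusted p 0.154, 0.159 and 0.268). With slide as a block Hmmr had an adjusted p of 0.0508.

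Further fallen members were the centromere histone Cenpa (-0.48), the spindle checkpoint kinases Bub1 (-0.47) and Bub1b (-0.47), cyclin B1 (Ccnb1, -0.45), cyclin B2 (Ccnb2, -0.41) and cyclin A2 (Ccna2, -0.41), the polo kinase Plk1 (-0.42), the spindle factor Tpx2 (-0.42) and survivin (Birc5, -0.41). The ubiquitin-conjugating enzyme Ube2c (-0.45) and the activator Cdc20 (-0.36), which both serve the anaphase-promoting complex, the midzone protein Prc1 (-0.41), the topoisomerase Top2a (-0.37), Nusap1 (-0.42), the phosphatase Cdc25c (-0.39) and cyclin D1 (Ccnd1, -0.39) completed the 19. Their adjusted p-values in limma lay between 0.021 (Kif23) and 0.049 (Nusap1), close to the threshold. Of widely measured members, again picked with their values seen, the proliferation marker Mki67 had -0.15 (limma, adjusted p = 0.287) and the mitotic kinase Cdk1 -0.27 (0.494). The second Cdk1 probe gave -0.53. The smallest difference in the list was that of Cdk2, at -0.04 (0.821).

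With PH against control, which shares no array with this comparison, 16 of the 42 fell and 0 rose, with a median of -0.35, where 3.65% of all genes fell. With PEE-PH-TA against PEE-TA 0 fell and 0 rose by limma (0 with an unadjusted p under 0.05), with a median of 0.03, where 0.068% of all genes fell. The difference between the effects with TA and with PEE-TA was -0.56 for Kif23 (limma, adjusted p = 0.0757), -0.58 for Aurka (0.0633) and -0.57 for Hmmr (0.111), none past the threshold.

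**Figure D3:**
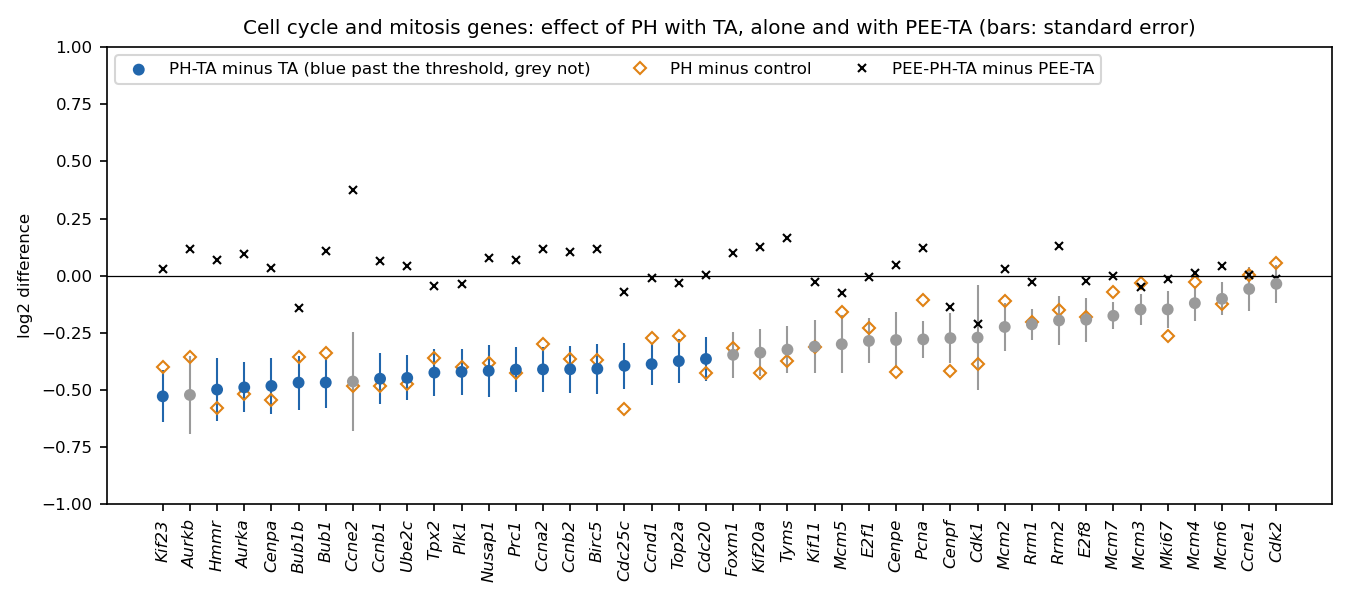
Log2 difference of the 42 cell cycle and mitosis genes for PH-TA minus TA (filled circles with standard errors, blue past the threshold), PH minus control (open diamonds) and PEE-PH-TA minus PEE-TA (crosses). All 42 circles lie below 0, from -0.53 for Kif23 to -0.04 for Cdk2, and the crosses scatter around a median of 0.03.

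Many promoters of mitotic genes carry the cell cycle genes homology region (CHR), whose letters are TTTGAA. Searched on either strand in the same RefSeq windows, they were found in 11 of the 15 fallen members with a window (73.3%), in 17 of the 33 list members with one (51.5%) and in 15.5% of the 13606 tested genes with one (2112). The letters CCAAT, which can share at most 1 base with the CHR letters, were found in 13 of the 15 (86.7%) against 42.1%. The members carrying CHR letters were Aurka, Bub1b, Ccnb2, Cdc20, Cenpa, Hmmr, Kif23, Plk1, Prc1, Top2a and Ube2c. For 4 of them CHR letters begin 18 to 30 bases before an annotated start, and the 150 bases before that start are shown, with these letters of either strand in capitals, because they fell and hold the match next to the start. They come from chr2:164769779-164769928 (Ube2c, plus strand), chr7:80294326-80294475 (Prc1, plus), chr11:99024190-99024339 (Top2a, minus) and chr4:118437344-118437493 (Cdc20, minus) in GRCm38.p6.
Ube2c: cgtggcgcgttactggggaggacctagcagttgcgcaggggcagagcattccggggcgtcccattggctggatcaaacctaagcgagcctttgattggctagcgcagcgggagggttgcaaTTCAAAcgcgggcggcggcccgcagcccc
Prc1: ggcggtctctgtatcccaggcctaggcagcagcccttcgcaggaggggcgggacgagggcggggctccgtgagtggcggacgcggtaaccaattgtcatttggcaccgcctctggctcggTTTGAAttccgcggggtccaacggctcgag
Top2a: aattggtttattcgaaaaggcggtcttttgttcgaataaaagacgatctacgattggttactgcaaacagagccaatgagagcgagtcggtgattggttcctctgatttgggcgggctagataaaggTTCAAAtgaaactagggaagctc
Cdc20: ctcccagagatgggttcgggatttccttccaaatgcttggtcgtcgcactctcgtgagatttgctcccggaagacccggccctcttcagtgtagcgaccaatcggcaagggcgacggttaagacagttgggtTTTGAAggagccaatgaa
The capitals begin 29, 30, 23 and 18 bases before the start in Ube2c, Prc1, Top2a and Cdc20. All 4 genes fell by 0.36 to 0.45, and the matches describe sequence only.

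Of the 8 genes of vitamin B6 uptake and salvage, 7 were tested and 2 rose, where 2.37% of all genes did. Alpl, tissue-nonspecific alkaline phosphatase, which removes the phosphate of pyridoxal phosphate outside cells and marks the dermal papilla, was at -3.18, -3.01 and -3.06 with TA and at -2.03, -2.44 and -2.24 with PH-TA. The groups did not overlap, and Alpl rose by 0.85 ± 0.16 (limma, adjusted p = 0.0109), but its dimmer second probe gave -0.31, and the mean of both did not pass (0.27, 0.327). Without PH-TA replicate 1 the adjusted p was 0.0939. Aox1, an aldehyde oxidase that turns pyridoxal into pyridoxic acid, rose by 0.81 ± 0.20 (0.0313) and lost this call without any one of 5 arrays, all but PH-TA replicate 3 (highest 0.196), and with normexp background it had 0.032 (0.746). The kinase Pdxk had 0.22 ± 0.07 (0.0835) with -0.21 on its second probe, the phosphatase Pdxp 0.01 (0.951), the pyridoxal phosphate-binding protein Plpbp 0.10 (0.376) and Slc19a2, a thiamine transporter that also carries pyridoxine, 0.21 (0.257). For Pdxp the 95% interval of the difference was -0.16 to 0.19.

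Among 40 enzymes that use pyridoxal phosphate, 2 rose (5%) and 1 fell (2.5%), near the 2.37% and 1.78% of all genes, and the median was -0.018. The GABA aminotransferase Abat rose by 0.72 ± 0.16 (limma, adjusted p = 0.0238), though its second probe gave -0.78. The serine racemase Srr rose by 0.37 ± 0.09 (0.0309). The branched-chain aminotransferase Bcat1 fell by 0.53 ± 0.12 (0.0219). All 3 lost their calls without TA replicate 1, TA replicate 3 or PH-TA replicate 1 (highest adjusted p 0.17, 0.173 and 0.158), and Abat and Srr also without PH-TA replicate 2. Of 14 genes of vitamin E handling, 0 rose and 0 fell by limma (2 with an unadjusted p under 0.05, against 4970 of all 22065 genes). Their differences ranged from -0.28 (Sec14l2) to 0.41 (Lrp1).

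Of 31 genes of the ATF4 stress response, which supplies amino acids under shortage, 5 fell and 1 rose, against 1.78% and 2.37% of all genes, with a median of -0.15. Phgdh, the first enzyme of serine synthesis, fell by 0.39 ± 0.09 (limma, adjusted p = 0.0219), Psph, the last one, by 0.47 ± 0.10 (0.0181), the proline enzyme Pycr1 by 0.68 ± 0.19 (0.0472) and the mitochondrial folate enzyme Mthfd2 by 0.32 ± 0.07 (0.0212). The transcription factor Atf5 was at 6.14, 6.10 and 6.02 with TA and at 5.79, 5.74 and 5.74 with PH-TA. It fell by 0.33 ± 0.05 (0.00359) and held with each array left out. The arginine transporter Slc7a3 rose by 0.43 ± 0.10 (0.0229), but not without TA replicate 1 or 3 or PH-TA replicate 1 (highest 0.169). Without TA replicate 1 or PH-TA replicate 1 the list had 1 fallen member each, without TA replicate 3 it had 3, and with quantile normalization or the authors' values 3.

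Of 32 hair cycle and Wnt genes 2 rose (6.25%) and 2 fell (6.25%), and of 26 dermal papilla and sheath genes 3 rose (11.5%) and 0 fell, against 2.37% risen and 1.78% fallen over all genes. Tgfb2, a signal known to end hair growth, was at 1.93, 1.98 and 1.78 with TA and at 3.50, 2.86 and 2.33 with PH-TA, and rose by 1.00 ± 0.25 (limma, adjusted p = 0.0351). Inhbb, an activin subunit, rose by 0.47 (0.0438), while Inhba, the other activin subunit, fell by 0.42 (0.0493) and the activin inhibitor follistatin (Fst) fell by 0.56 (0.023). Each of these 4 lost its call without PH-TA replicate 1 or 2 (highest adjusted p 0.221, 0.253, 0.241 and 0.121), and Inhba also with slide as a block (0.0544). In the dermal papilla list the integrin Itga8 (1.07 ± 0.24, 0.0239), the IGF-binding protein protease Pappa (0.87 ± 0.23, 0.0406) and the transcription factor Trps1 (0.62 ± 0.17, 0.0475) rose. Another Trps1 probe gave -0.05, and 0 of the 26 rose without TA replicate 1, TA replicate 3, PH-TA replicate 1 or PH-TA replicate 2.

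Of the 10 VEGF family genes, Flt1, which encodes the receptor VEGFR-1, rose with PH-TA against TA, where 2.37% of all genes rose. It was at 0.89, 0.65 and 0.67 with TA and at 1.71, 1.27 and 1.26 with PH-TA. The groups did not overlap, and the difference was 0.68 ± 0.15 (limma, adjusted p = 0.021), with 0.52 and 0.27 on further probes. Flt1 lost its call without TA replicate 3 (0.0715) or PH-TA replicate 1 (0.154), and with the mean of all its tested probes (0.49, 0.12). Its ligand Pgf, placental growth factor, was at 0.46, 0.48 and 0.63 with TA and at 0.65, 0.34 and 0.35 with PH-TA. These arrays overlapped, and the difference was -0.08 ± 0.14 (0.768) with a 95% interval of -0.37 to 0.22. Vegfa, the main endothelial ligand, had 0.19 (0.493), Vegfb -0.0051 (0.985), the lymphatic ligands Vegfc -0.43 (0.053) and Vegfd 0.01 (0.956), the receptors Kdr 0.03 (0.913) and Flt4 0.70 (0.247), and the co-receptors Nrp1 0.13 (0.333) and Nrp2 -0.08 (0.596).

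Single members passed in several further lists, where 2.37% of all genes rose and 1.78% fell. Among 18 retinoid genes the receptor Rara (0.49, limma, adjusted p = 0.0269) and the retinol esterifying enzyme Lrat (0.44, 0.0496) rose, and 1 gene fell. Of 18 clock genes the repressor Nr1d1 (0.46, 0.0307) and the clock output factor Tef (0.27, 0.0384) rose; another Tef probe gave -0.60. Among 23 p53 targets Zmat3 (0.41, 0.0176) and the death receptor Tnfrsf10b (0.38, 0.0113) rose, among 25 heat shock genes Hspa1a (0.41, 0.0451) and its co-chaperone Bag3 (0.27, 0.0306), and among 31 immediate early genes the nuclear receptor Nr4a2 (0.54, 0.00826). The cytochrome Cyp1b1 (0.56, 0.021), the melanosome receptor Gpr143 (0.96, 0.0325), the lipid droplet gene Plin4 (0.69, 0.0493) and the lipase Pnpla2 (0.35, 0.018) rose, each alone in its list of cytochrome, melanocyte, fatty acid oxidation or adipocyte genes. Of 17 nerve genes the ubiquitin hydrolase Uchl1 rose by 0.58 (0.018), and the tubulin regulator Stmn2 fell by 0.65 ± 0.11 (0.00561), the latter in each of the 6 fits with an array left out. The other genes of this paragraph lost their calls without at least PH-TA replicate 1 (highest adjusted p from 0.0763 for Nr4a2 to 0.258 for Plin4).

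In some lists the slides differed in sign. Of 36 interferon response genes 1 fell, Ifi27l2a (2.78%, near the 1.78% of all genes). All 36 had a difference below 0, where 43.1% of all genes were above 0. The list median was -0.34, and by slide it was -0.77, -0.32 and 0.11. Ifi27l2a lost its call with quantile normalization (limma, adjusted p = 0.0544), in the authors' values (0.0664) and with the mean of its probes (0.117). Of 41 inflammatory cytokines and chemokines 2 fell (4.88%, against 1.78% of all genes), with a median of -0.39 and slide medians of -0.95, -0.22 and 0.14. These were Tnf and the epithelial cytokine Tslp (-0.78, limma, adjusted p = 0.0307). Tslp lost its call without TA replicate 1 or 3 or PH-TA replicate 1 or 2 (highest 0.195). The lowest member of the list was Csf2 at -1.26 (0.0757). Of 16 hair shaft keratins 0 rose and 0 fell by limma (2 with an unadjusted p under 0.05), with a median of 0.41, slide medians of 0.40, -0.32 and 1.14, and -0.13 with array signal as a covariate. The shaft keratin Krt31, for example, was at 5.19, 5.79 and 4.64 with TA and at 5.60, 5.57 and 5.81 with PH-TA, arrays that overlapped (0.351). Of 23 hair matrix regulators and 16 inner root sheath genes 0 passed (1 and 4 with an unadjusted p under 0.05), with medians of 0.20 and 0.16. Of 24 cholesterol synthesis genes 0 passed (9 with an unadjusted p under 0.05), 22 were below 0 and the median was -0.19. Likewise 0 passed of 24 fatty acid synthesis, 32 hypoxia and glycolysis, 29 epidermal differentiation and 16 glucocorticoid response genes, with 1, 2, 3 and 6 at an unadjusted p under 0.05. For all unadjusted counts of this paragraph, the number over all 22065 genes was 4970.

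**Figure D4:**
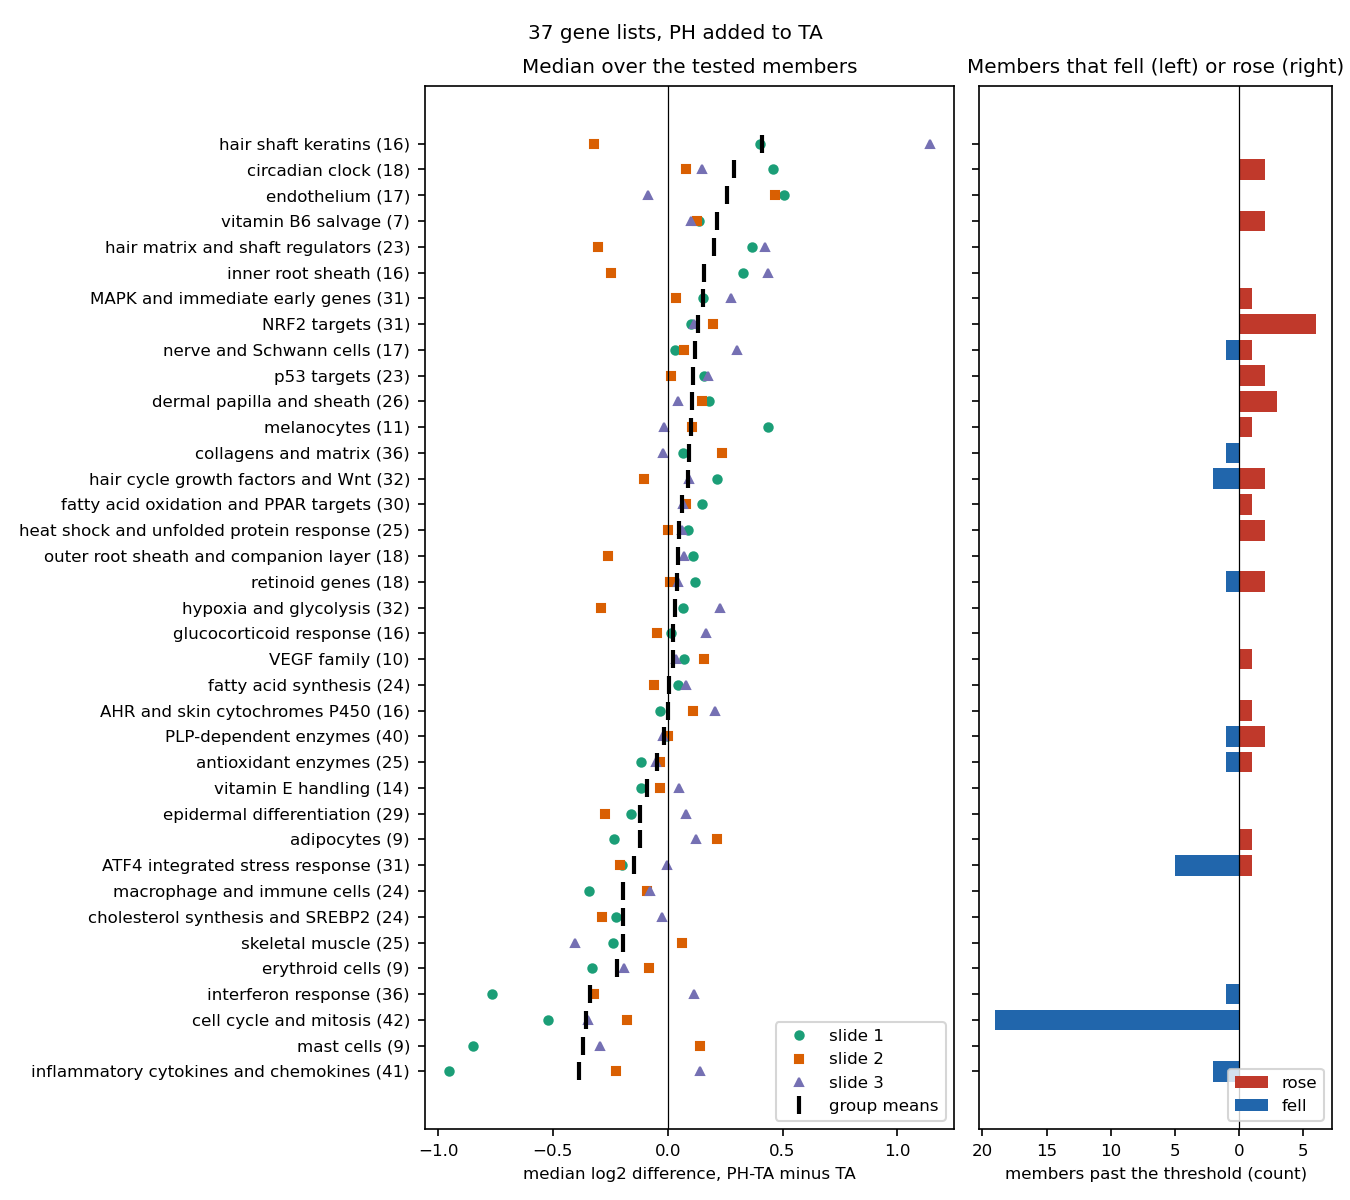
For 37 gene lists (number of tested members in parentheses), the left panel gives the median log2 difference PH-TA minus TA from group means (black bars) and within each slide (coloured symbols), the right panel the number of members that fell (left of 0) or rose (right). Cell cycle and mitosis has 19 fallen members and NRF2 targets 6 risen ones, while the 3 slides part for interferon genes, cytokines and hair shaft keratins.

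The effect of PH was set beside that on 2 other backgrounds, whose arrays are not those of PH-TA and TA. With PH against control 352 genes rose (1.6%) and 806 fell (3.65%), together 5.25%. Of these, 264 also passed with PH-TA against TA, which is 28.8% of the 917 and 22.8% of the 1158, and 260 of the 264 had the same direction. Of the 917, 862 (94.0%) had the same sign with PH alone, where the 524 risen genes had a median of 0.20, against 0.41 with TA, and the 393 fallen ones -0.30, against -0.41. The 917 were chosen by their values with TA, which favours larger medians there. These medians therefore do not show a stronger effect of PH with TA. Across the 22065 genes, which are not independent replicates, Pearson's r between both effects was 0.50. Rbp7 fell by 2.10 with PH alone (limma, adjusted p = 0.000223), Alox12e by 0.77 (0.00824), P2rx2 by 0.83 (0.00519) and Serpina3f by 0.72 (0.00481), and Fibin rose by 1.49 (0.00237) and Serpini1 by 1.18 (0.0156). Ces1a had 0.56 (0.117) and Tnf -0.35 (0.422).

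With PEE-PH-TA against PEE-TA 38 genes rose (0.172%) and 15 fell (0.068%), together 0.24%, and 84 passed with slide as a block. Of the 53, 10 also passed with PH-TA against TA, 1.09% of the 917 and 18.9% of the 53, and 9 of the 10 had the same direction. Of the 917, 445 (48.5%) had the same sign, and the risen and fallen genes had medians of 0.03 and 0.06, against 0.041 for all genes of that comparison. Pearson's r across all genes was -0.13. Rbp7 fell here as well, by 1.31 (limma, adjusted p = 0.0258). The test of the difference between the effects with TA and with PEE-TA passed 173 genes (0.784%), 43 higher (0.195%) and 130 lower (0.589%). That count was 591 with slide as a block, 0 with array signal as a covariate (1944 with an unadjusted p under 0.05), 0 without TA replicate 3, PH-TA replicate 1, PEE-TA replicate 2 or PEE-TA replicate 3, and 1597 without PEE-TA replicate 1.

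**Figure D5:**
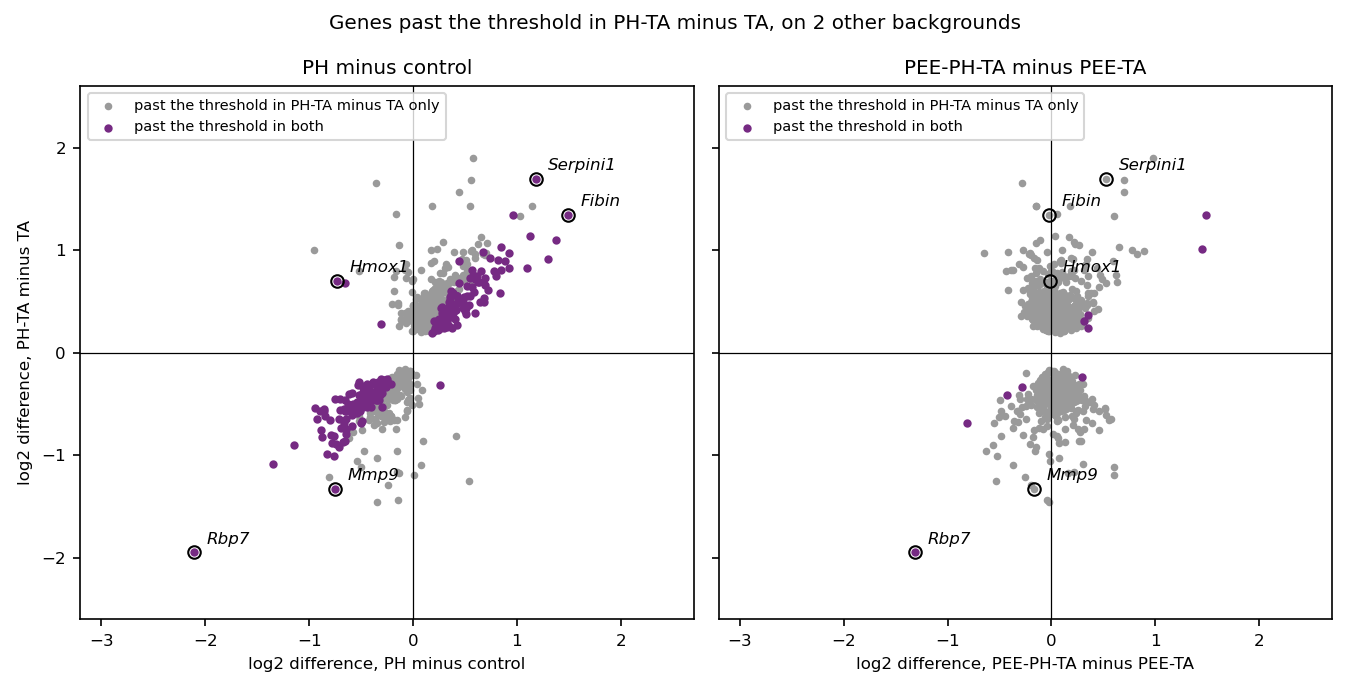
Log2 difference PH-TA minus TA of the 917 genes past the threshold (vertical axis) against PH minus control (left) and PEE-PH-TA minus PEE-TA (right); purple points passed in both comparisons, and circled genes are named. On the left 94.0% of the points share the sign, with Hmox1 among the exceptions, and on the right 48.5% do.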

How the data were processed

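RNA of vibrissa follicles was measured on 24 one-colour Agilent arrays, 3 for each of 8 groups, with 1 array of every group on each of 3 slides. Intensities were extracted with Agilent Feature Extraction 12.0.3.1, per the file headers; the deposited intensity used is the processed signal, which that program had corrected for background. The labels name biotin, while each scan holds 1 green channel. A table of log2 values deposited by the authors, whose scaling is not given in the sources used here, served as an alternative. Probe positions (mm9) are those of the array files, and their place in exons or UTRs was not analysed here.

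Values were log2 of the processed intensity minus the 75th percentile of each array. Spots marked as outliers were set to missing. Probes well above background on all 3 arrays of a group were kept (33365 of 56605), 25 were left out for a marked spot, and the brightest of 33340 stood for each of 22065 genes, 15498 of them with a gene name. Symbols were updated through accessions (35405 probes matched). Group means over 24 arrays were fitted with limma 3.58.1 in R 4.3.3 (empirical Bayes, 16 residual and 2.19 prior degrees of freedom), and p-values adjusted by Benjamini-Hochberg over all genes, for 5 comparisons. P-values rest on the spread of arrays within groups, estimated over all 8 groups and not only over the groups compared. The fit was tested on simulated data. A bound is given where a probe was not well above background on any array of a group. Quantile and normexp settings (offset 50), other filters, probe rules, models and left-out arrays were tried. Figures were drawn with matplotlib 3.10.9.

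The comparison, the 37 gene lists and the tests were chosen with earlier results of these data known. Named by rule were the 12 largest rises and 12 largest falls past the threshold whose arrays did not overlap, leaving out gene models and clones, up to 5 per direction in the tests of a difference between effects, up to 3 per direction in each list with the highest and lowest member, and all tested vitamin B6 salvage and VEGF genes. Some genes that this rule covers are not reported here. Gstm1, Gstm3, Slc48a1, Atf5, Mthfd2, Krt31, the cell cycle genes beyond Kif23, Hmmr and Aurka, and list members described as widely measured were chosen after their values were seen.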

Additional observations from a re-analysis of the deposited data

Results flagged for a closer look

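The effect of PH differed between follicles with and without TA, by limma's test of the difference itself, in 3 genes (0.0136% of those tested). Hmox1 had 1.43 (adjusted p = 0.000583), Gfod1 1.16 (0.00462) and Lime1 0.68 (0.0152), each higher with TA. Of these, Hmox1 fell with PH against control and rose with PH-TA against TA, both past the threshold. The difference of Gfod1 did not pass with the mean of its probes (limma, adjusted p = 0.343) or with normexp background (0.129). That of Lime1 did not pass with array signal as a covariate (0.0866).

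The effect of PH also differed between follicles with TA and with PEE-TA, by the same test in limma, in 173 genes (0.784%). That count was 10 in the authors' values and 0 without the filter on dim probes. It was also 0 without TA replicate 3, PH-TA replicate 1, PEE-TA replicate 2 or PEE-TA replicate 3. Among the genes higher with TA, Gc, the vitamin D-binding protein, had 2.71 (adjusted p = 0.0452), from 1.35 with TA and -1.36 with PEE-TA; with normexp background it had -0.045. The embryonic myosin Myh3 had 1.27 (0.0454), the nuclear receptor Nr5a2 1.19 (0.0475), the glycosyltransferase Galnt15 1.18 (0.0385) and the receptor Mrgprf 1.10 (0.0454). Of these, Galnt15 (0.97, 0.00525) and Mrgprf (0.83, 0.0163) rose with PH-TA against TA.

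Of the genes lower with TA, 3 encode matrix metalloproteinases. Mmp10 had -1.45 (limma, adjusted p = 0.0468), Mmp9 -1.16 (0.041) and Mmp1b -1.15 (0.0385). Mmp9 and Mmp1b (-0.86, 0.00645) fell with PH-TA against TA, and Mmp10 had -0.78 (0.0589). The mitochondrial ATP synthase subunit ATP8 had -1.21 (0.0412) and the protease inhibitor Serpinb2 -1.18 (0.0413). None of the 173 passed with array signal as a covariate.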

How the results depend on the processing

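For PH-TA against TA, where 917 genes passed, the count was 824 with quantile normalization (750 of the 917 among them) and 628 in the authors' values (528 of the 917), but 6682 with normexp background, 6132 without the filter on dim probes, 3 on the 6 arrays alone and 0 with array signal as a covariate; it ran from 71 to 1565 with 1 array left out. For PH against control it was 733 without the filter, 318 on its arrays alone and 634 with the covariate, and 279 to 1198 with an array left out. The difference between PH effects with and without TA passed 6 genes in the authors' values and 2 to 9 with an array left out. For PEE-PH-TA against PEE-TA the count was 22 in the authors' values, 24 without the filter, 96 with a trended and robust prior, 0 on its arrays alone and 35 with the covariate (3 to 284 with an array left out). The difference between PH effects with TA and with PEE-TA passed 86 genes with quantile normalization, 4946 with normexp, 10 in the authors' values, 0 without the filter, 68 with the mean of all probes, 668 with the other prior, 0 on the arrays alone and 0 with the covariate (0 to 1597 with an array left out). Of the list members, 66 passed, against 197 with normexp, 124 without the filter, 0 on the 6 arrays alone and 0 with the covariate (7 to 109 with an array left out). The cause of these shifts was not tested. Fits on fewer arrays also had fewer residual degrees of freedom, and the part of this was not tested either. The replicate number is also the slide, and with it as a replicate block PH-TA against TA passed 1133 genes, 876 of the 917 among them (Hmmr and Inhba lost their calls), PEE-PH-TA against PEE-TA 84, and the difference between effects with TA and with PEE-TA 591. Deviations of same-numbered arrays from their group means had r of 0.022, -0.024 and -0.0048 for PH-TA and TA and of 0.099, 0.085 and 0.12 for PH and control. Some log2 differences turned sign. With normexp they were -0.062 for Adam22, -0.098 for Dipk1c, -0.037 for Flt4, -0.034 for Gpr143, -0.029 for Grifin, -0.11 for Hoxc6, -0.072 for Morn5, -0.10 for Pcdhb13, -0.055 for Scgb3a1, -0.0090 for Slc7a3, -0.093 for Trim31, 0.015 for Vegfb, and -0.045 for the difference between effects of Gc. With the mean of all probes Abat had -0.029 and Tef -0.014. Nrp2 had 0.019 with quantile normalization and 0.027 in the authors' values, Vegfb 0.023 in the latter, and Vegfd -0.034 with the covariate. With an array left out, values near 0 crossed it, from -0.036 to 0.14 for Kdr, -0.037 to 0.066 for Pdxp, -0.089 to 0.068 for Vegfb and -0.046 to 0.081 for Vegfd. With 3 arrays a group and follicles pooled by 10, small differences are imprecise.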

Other observations

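Both gene groups described here were chosen after their values were seen. Of 10 mitochondrially encoded transcripts tested, all 10 were lower with PH-TA than with TA and 5 fell by limma, with a median of -0.49, where 1.78% of all genes fell. The lowest was the ATP synthase subunit ATP8 at -0.76 and the highest the complex I subunit ND6 at -0.14, and the slides gave medians of -0.57, -0.40 and -0.49. The median was -0.35 with quantile normalization and -0.37 in the authors' values. With PH against control 9 of the 10 fell (3.65% of all genes), with a median of -0.80, and with PEE-PH-TA against PEE-TA 0 fell and the median was 0.43. ATP8 itself was at 5.85, 5.92 and 6.42 with TA and at 4.89, 5.42 and 5.61 with PH-TA, arrays that did not overlap.

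Of 84 genes of cytosolic ribosomal proteins, 83 were lower and 8 fell, where 43.1% of all genes had a difference above 0 and 1.78% fell. The median was -0.16, but it was -0.0023 with quantile normalization and 0.00037 in the authors' values. The direction of this family thus rests on the scaling.

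The difference also varied with the length of the gene. Over 17278 genes with a length, cut into 5 classes of equal size, the median difference was -0.076 in the shortest class (median length 2969 bases), then -0.040, -0.012 and 0.019, and 0.07 in the longest (110902 bases). In the shortest class 56 of 3456 genes rose and 99 fell, and in the longest 149 of 3456 rose and 32 fell. Over all genes tested 2.37% rose and 1.78% fell. Spearman's rho between length and difference was 0.21 across genes, which are not independent replicates, and 0.032 between mean level and difference. Array signal and RNA quality were not tested for their part in this.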
